A study of Danio rerio with 6 samples.

Results

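The pronephros, the first kidney of the zebrafish embryo, was followed through 10 genes in whole embryos that lacked functional hand2 and in their wild-type siblings. The genes were taken by name: slc12a3, hnf1bb, hnf1ba, cdh17, lhx1a, wt1a, osr1, mecom, irx3b and jag2b. Every probe set whose annotated symbol is one of these names was used, which gave 11 of the 15502 probe sets that are not controls. They name 6 of the 10 genes, out of 8793 genes named on the array: slc12a3 with 2 probe sets, lhx1a and wt1a with 3 each, and hnf1bb, cdh17 and jag2b with 1 each. The genes hnf1ba, osr1, mecom and irx3b were not analysed here, so hnf1bb was studied without its paralogue and the early marker osr1 has no value.

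The samples were hand2 mutants of the hanS6 allele (3 arrays) and phenotypically wild-type siblings from the same kind of heterozygous cross (3 arrays), all at 19 hours post fertilization. Each array held total RNA of 10 to 25 pooled whole embryos, and 3 independent crosses were used. Mutants were recognised by the pattern of the cardiac reporter Tg(myl7:egfp), so the sibling pools can hold heterozygotes beside homozygous wild-type embryos. The labels do not say what the hanS6 allele changes in the gene. In whole embryos, more cells of a type and more RNA per cell cannot be told apart.

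The pronephros forms from the intermediate mesoderm, a strip between the somites and the lateral plate. Transcription factors such as osr1, pax2a, pax8 and lhx1a mark that strip early, wt1a marks the cells that become podocytes of the filter, and the HNF1 factors are needed for the tubule to acquire its segments. Differentiated segments then switch on transporters and adhesion proteins, among them slc12a3 at the distal end and cdh17 along tubule and duct. In zebrafish, hand2 acts in the lateral plate beside this strip and is known to restrain formation of the intermediate mesoderm. The comparison asked whether the pronephros genes differed between mutants and siblings, and whether the tubule and duct genes did so differently from the podocyte and early mesoderm genes.

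Values are MAS5 signals, a linear measure of hybridisation brightness for 1 probe set on 1 array. Differences are mutant minus sibling means of log2(signal + 16), with the standard error (SE) of a limma fit across the whole array. The brightest of 17 Tag control probe sets on each array, which match no zebrafish transcript, was taken as the level of background. It lay between 57.0 and 80.2 on the mutant arrays and between 63.7 and 122 on the sibling arrays. A signal at or below it is called at background here. The arrays had median signals of 161 to 176 in mutants and 151 to 165 in siblings. The targeted gene followed the labels: hand2 had 52.8, 50.9 and 45.1 in mutants, all at background, against 349, 448 and 292 in siblings (limma, adjusted p = 0.0051). With 16 added to signal and background alike, the sibling arrays were on average 4.35-fold above the background level of the mutant arrays. This is a bound for these arrays without their spread. Without sibling replicate 1 or 2 the adjusted p of hand2 was 0.060 or 0.054.

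The tubule genes slc12a3, hnf1bb and cdh17 had higher mean signals in mutants than in siblings, while the Notch ligand gene jag2b was nearly level. None of these passed the threshold after adjustment over all 11626 tested probe sets. That threshold, an adjusted p under 0.05, was passed by 1 probe set, or 0.0086%, which was hand2.

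The gene slc12a3 encodes the thiazide-sensitive sodium-chloride cotransporter of the distal tubule. Its brighter probe set had 238, 469 and 105 in mutant replicates 1, 2 and 3, against 49.5, 48.3 and 43.2 in the siblings of the same numbers. All 3 mutant arrays lay above all 3 sibling arrays. The sibling arrays differed little among themselves, and all 3 were at background. The mean was 271 ± 184 in mutants and 47.0 ± 3.3 in siblings (SD, n = 3 each). The fitted log2 difference of 1.97 ± 0.41 (SE) had an unadjusted p of 0.00089 and an adjusted p of 0.942 in limma. Since the siblings gave no reading above background, the fitted value is no measure of size. With 16 added to signal and background alike, slc12a3 on the mutant arrays was on average 2.57-fold above the background level of the sibling arrays. This is a bound for the values of these arrays with that offset and holds no spread between them. The 95% interval of the fitted log2 difference was 1.04 to 2.90.

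A second slc12a3 probe set was dimmer and fell among the lowest 25% by mean level, so it was not part of the test. It had 105, 68.2 and 59.3 in mutants against 17.0, 51.4 and 8.31 in siblings. Here too every mutant array lay above every sibling array, but only mutant replicate 1 was above background. The log2 difference was 1.27, positive at all 3 replicate numbers (1.87, 0.32 and 1.63). When the level filter was dropped and all 15502 probe sets were tested, the second probe set had an unadjusted p of 0.0074 and an adjusted p of 0.947 in limma. With an offset of 64 in place of 16 its difference was 0.68. Both slc12a3 probe sets report on 1 gene and are not independent readings of the embryos.

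The transcription factor gene hnf1bb, whose HNF1 protein takes part in giving zebrafish tubule cells their segment identity, had the same arrays high and low as slc12a3. Its signals were 173, 247 and 62.6 in mutants, against 44.6, 51.8 and 29.5 in siblings. The groups did not overlap. All sibling arrays, and mutant replicate 3 as well, were at background. The fitted log2 difference was 1.46 ± 0.40 (limma, unadjusted p = 0.0045, adjusted p = 0.942). It is taken against signals that were not above background, and with mutant replicate 3 also there, no fold is given. The sibling mean of 42.0 lies under the level of the filter, a signal of about 46.1, so hnf1bb entered the test only through its mutant signal and its p supports nothing by itself. Of all tested probe sets, 3.71% had the 3 mutant arrays above the 3 sibling arrays and 3.04% had them below. That the groups of slc12a3 and hnf1bb lay apart is set beside this share as a description.

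The cadherin gene cdh17, needed in zebrafish for an intact pronephric tubule and duct, was above background on every array. It had 755, 1012 and 339 in mutants, against 337, 470 and 174 in siblings. The groups overlapped, since mutant replicate 3 lay below sibling replicate 2 and almost level with sibling replicate 1. Within each replicate number, however, the mutant had about the same excess: 1.13, 1.08 and 0.90 on the log2 scale at numbers 1, 2 and 3. The mean was 702 ± 339 in mutants and 327 ± 148 in siblings (SD, n = 3 each), a fitted difference of 1.04 ± 0.42 with a 95% interval of 0.10 to 1.97. In limma this gave an unadjusted p of 0.034 and an adjusted p of 0.942. The difference was 0.66 without sibling replicate 3.

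**Figure D1:**
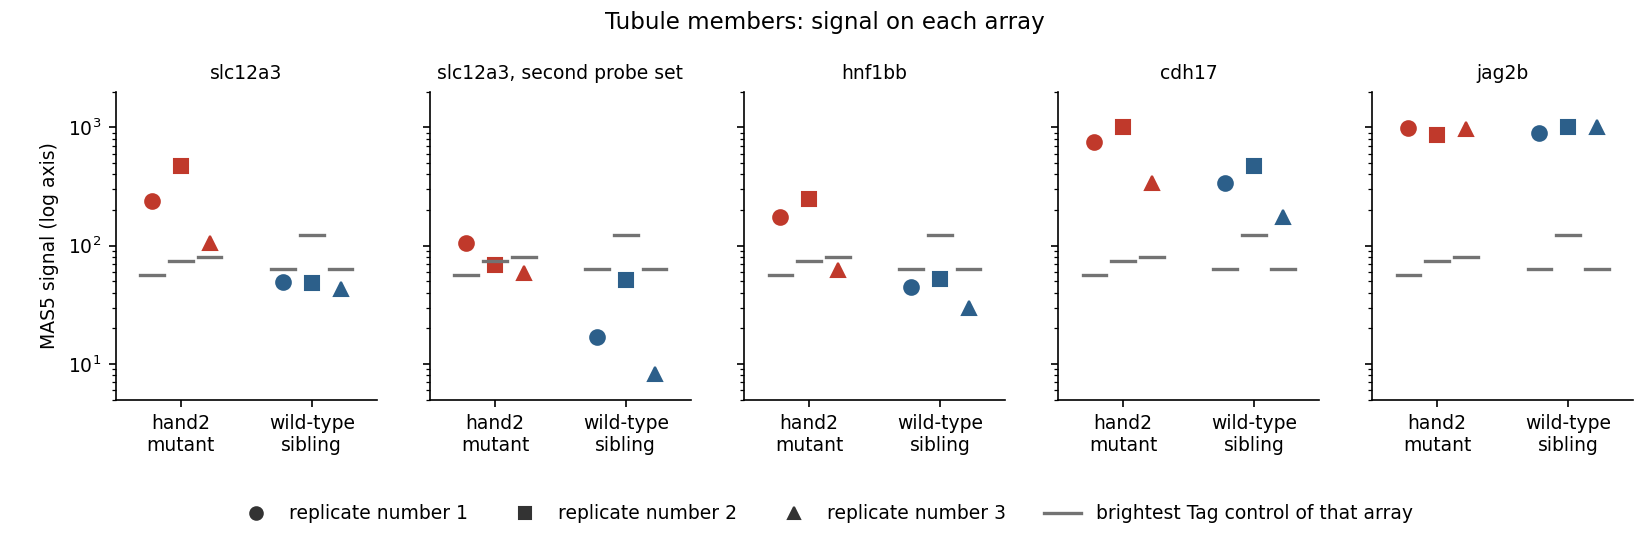
MAS5 signal (log axis) of slc12a3 (both probe sets), hnf1bb, cdh17 and jag2b on each of the 6 arrays, hand2 mutants left and wild-type siblings right; each symbol is 1 array, its shape gives the replicate number, and the grey bar is the brightest Tag control of that array. For slc12a3 and hnf1bb all sibling points lie below their bars, cdh17 lies above the bars throughout with mutant replicate 3 lowest among the mutants, and the jag2b points of both genotypes lie between 865 and 1007.

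Of the 3 tubule genes, cdh17 depended most on the replicate number. Deviations from the genotype means correlated at 0.19, 0.12 and 0.48 between the arrays that share a number, and a fit with the number as a block was therefore run as well. With the replicate block, cdh17 had an SE of 0.14 in place of 0.42, an unadjusted p of 7.2e-05 and an adjusted p of 0.312, the smallest after hand2 among all tested probe sets. The block gave slc12a3 an unadjusted p of 0.00027 and hnf1bb one of 0.00036 (limma, adjusted p = 0.525 and 0.526), so none of the 3 passed with it. Unadjusted p-values under 0.05 with higher signal in mutants were held by 2% of tested probe sets without the block and by 4.82% with it.

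By replicate number, the brighter slc12a3 probe set differed by 1.95, 2.92 and 1.03 and hnf1bb by 1.64, 1.96 and 0.79 on the log2 scale. All 3 tubule genes were thus higher in the mutant at each of the 3 numbers, as were 16.2% of all tested probe sets. Number 3 gave the smallest difference in these 3 probe sets, and mutant replicate 3 had their lowest mutant signal. In the dimmer slc12a3 probe set number 2 gave the smallest difference. Without mutant replicate 3 the log2 difference of slc12a3 was 2.48 and that of hnf1bb 1.97. Both passed in limma (adjusted p = 0.021 and 0.033), among 20 probe sets that did, with the sibling signals of both still at background. The array left out held the lowest mutant signal of both genes, and hnf1bb entered the test only through its mutant signal. These passes therefore support nothing by themselves. For cdh17 it was 1.48 (adjusted p = 0.203). Without both arrays of number 3, none of the 3 genes passed (adjusted p = 0.117 for slc12a3, 0.160 for hnf1bb and 0.347 for cdh17).

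The Jagged-family gene jag2b encodes a Notch ligand. In the pronephros, Notch signalling sets the balance between multiciliated and transporting cells, but Jagged genes are also used elsewhere in the embryo. Its signals were 979, 865 and 976 in mutants, against 889, 999 and 1007 in siblings. The groups overlapped fully, and the difference was positive at number 1 and negative at the other two. The fitted difference was -0.04 ± 0.14 with a 95% interval of -0.34 to 0.27 (limma, adjusted p = 0.980). The interval leaves out the fitted value of cdh17, 1.04, but overlaps the cdh17 interval of 0.10 to 1.97. The difference of jag2b was not tested against that of cdh17. Nor does the jag2b interval show that the genotypes were equal. The sign turned without mutant replicate 2 (0.021).

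The podocyte and early mesoderm genes lay at the limit of what the arrays measured. The zinc finger gene wt1a, a marker of podocyte precursors, was at background on all 6 arrays in each of its 3 probe sets. Its brightest probe set had 42.0, 39.4 and 39.3 in mutants, against 41.6, 64.8 and 39.2 in siblings. None of the 3 passed the level filter, so none was part of the main test. In the fit without the filter their unadjusted p-values were 0.435, 0.744 and 0.414 (limma, adjusted p = 0.949, 0.982 and 0.948).

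The LIM homeobox gene lhx1a marks the early intermediate mesoderm and also some neurons. The probe set with the highest mean log2 level was at background on all arrays, with 45.9, 43.4 and 53.0 in mutants against 48.6, 53.3 and 40.1 in siblings, and another was dimmer still, between 5.87 and 19.9 on the 6 arrays. A remaining lhx1a probe set, just under the level filter, had 88.4, 50.9 and 43.8 in mutants against 52.6, 34.3 and 22.6 in siblings. In it the mutant was higher at all 3 numbers (0.61, 0.41 and 0.63 on the log2 scale), although only mutant replicate 1 was above background and the groups overlapped. Its log2 difference was 0.55, and 0.31 without mutant replicate 1 or 0.35 without sibling replicate 3. In the fit without the filter its unadjusted p was 0.094, or 0.030 with the replicate block, and its adjusted p was 0.947 and 0.713 (limma). The 3 lhx1a probe sets therefore did not show 1 common pattern.

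**Figure D2:**
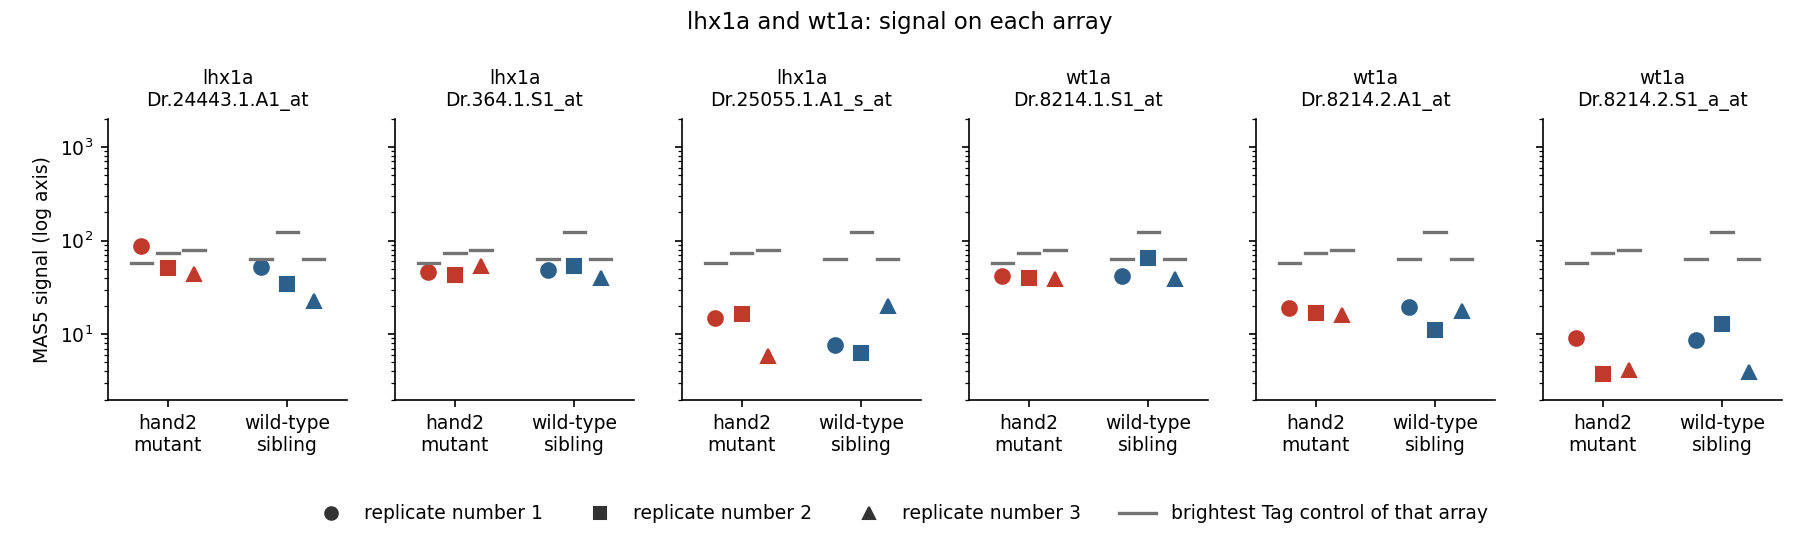
MAS5 signal (log axis) of the 3 lhx1a and 3 wt1a probe sets on each array, drawn as for the tubule genes, hand2 mutants left and wild-type siblings right. Of the 36 points, 1 lies above the brightest Tag control of its array: mutant replicate 1 of the leftmost lhx1a probe set, at 88.4.

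With 1 probe set for each gene, the median log2 difference of the duct and distal tubule genes was 1.502 over 2 genes, slc12a3 and cdh17. It was -0.09 over the 2 podocyte and early mesoderm genes, wt1a and lhx1a, and 0.02 over all tested probe sets. The gap between both medians was 1.59 over all arrays and 1.57, 2.38 and 0.82 at the 3 replicate numbers, with an SD of 0.78. With hnf1bb and jag2b added to the tubule side, the median of 4 genes was 1.25. Of slc12a3, cdh17, wt1a and lhx1a, only cdh17 was above background on all arrays. The siblings were at background for slc12a3, and both genotypes were for wt1a (-0.18) and the chosen lhx1a probe set (0.004). The medians and the gap are therefore descriptions of fitted values, not measured sizes, and no test was made of the gap.

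Other genes of the same structures were therefore examined from set lists, in which 78 genes besides the members stood under 6 headings. Of these, 50 had a named probe set and 41 passed the level filter. In mutants 28 of the 41 had higher and 13 lower fitted values, or 68.3% higher against 53.8% of all tested probe sets, with a median of 0.08 against 0.02. None passed after adjustment in limma, also when the replicate number was fitted. An unadjusted p under 0.05 was held by 4 genes with higher signal (atp1a1a.4, slc4a2a, atp1b1a and etv5a) and by 1 with lower signal (cimap1b, at background in all mutants), where all tested probe sets gave 2% higher and 1.03% lower. Fitted with the replicate number, 7 genes were above and 1 below at that level, where all tested probe sets gave 4.82% above and 302 of 11626 below. In 5 of the 41 all mutant arrays lay above all sibling arrays, and in 2 they lay below. All tested probe sets gave 3.71% and 3.04%.

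Among the 28 listed genes of distal tubule and duct, 17 were tested, members included, with 11 higher and 6 lower and a median of 0.06. The sodium-potassium ATPase subunit gene atp1a1a.4, strongly expressed in the pronephros, had 632, 619 and 285 in mutants against 204, 233 and 207 in siblings. Its groups did not overlap, and the log2 difference was 1.11 ± 0.28 (limma, adjusted p = 0.942). The ATPase beta subunit gene atp1b1a had 2823, 2472 and 1886 in mutants against 1528, 1888 and 1915 in siblings, with a difference of 0.41 ± 0.17, and was not higher at number 3. The receptor tyrosine kinase gene ret, expressed in the duct and in neurons, had 86.6, 134 and 60.9 in mutants against 72.2, 42.3 and 54.1 in siblings, a difference of 0.57 ± 0.28, and 3 of these 6 signals were at background. Other genes of this heading lay on both sides of 0. The transcription factor gene emx1 differed by 0.27 with 5 of 6 signals at background, the duct transcription factor gene gata3 by 0.10, the cloacal water channel gene aqp3a by -0.34, and the Iroquois gene irx1a by -0.27 with all mutant arrays below the sibling arrays.

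Of the 12 proximal tubule genes, 3 were tested, 2 higher and 1 lower, with a median of 0.75. The anion exchanger gene slc4a2a had 505, 536 and 164 in mutants against 160, 146 and 99.5 in siblings, with no overlap and a difference of 1.33 ± 0.40 (limma, adjusted p = 0.942). The sulfate transporter gene slc26a1 had 145, 274 and 90.1 in mutants against 95.5, 105 and 61.8 in siblings (0.75 ± 0.35), and 2 of those sibling signals were at background. The broadly expressed ion channel gene trpm7 differed by -0.19 ± 0.15. In slc4a2a and slc26a1 mutant replicate 3 was again the lowest mutant array.

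The podocyte list had 2 tested genes of 9 named: podxl, a podocyte surface sialomucin also found in endothelium, differed by 0.26 ± 0.26, and cd2ap, a widely expressed adaptor of the slit diaphragm, by 0.06 ± 0.16. Of the 12 early intermediate mesoderm genes, 5 were tested, and all 5 had higher fitted values with a median of 0.20. These include the member lhx1a, at 0.004 and at background on all 6 arrays. By replicate number the median was -0.06, 0.34 and 0.52, so it was not positive at number 1. The paired-box gene pax2a had 315, 342 and 299 in mutants against 279, 266 and 277 in siblings, groups that did not overlap, with a difference of 0.20 ± 0.16 (limma, adjusted p = 0.942). The eya1 gene, a cofactor of homeodomain proteins, had 471, 511 and 384 in mutants against 389, 395 and 238 in siblings, with a difference of 0.43 ± 0.22. The pax2a paralogue pax2b differed by 0.25 ± 0.26, and pax8 was at background on all arrays. Both pax2a and eya1 are also expressed in brain, otic or sensory tissue, so a whole embryo does not read them from the intermediate mesoderm alone. None of these differences reached that of cdh17, and neither did most tested genes of the distal tubule and duct list. The podocyte list had a median of 0.16. The medians of both lists were above the 0.06 of distal tubule and duct and below the 0.75 of proximal tubule, over 3 tested genes. The gap between the members was thus not seen against the distal tubule and duct list. The podocyte median rests on 2 genes, and a whole embryo does not read the duct list from the duct alone either. The lists therefore do not show whether the duct itself differed.

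Among 6 tested tubule-wide regulators, 4 were higher and 2 lower, with a median of 0.12. Apart from hnf1bb, those of smallest p were tfap2a (-0.22 ± 0.13), pou3f3a (0.40 ± 0.28) and pou3f3b (0.15 ± 0.21), transcription factor genes with broad roles in ectoderm or brain, and the liver and kidney factor gene hnf4a differed by 0.09. In the list of multiciliated cell and Notch genes, 13 were tested, 8 higher and 5 lower, with a median of 0.05. The receptor gene notch1a had 325, 257.5 and 268 in mutants against 256.6, 214 and 133 in siblings (0.50 ± 0.24), groups that barely lay apart. The ETS factor gene etv5a, an Fgf target that also acts in pronephric multiciliated cells, had 869, 706 and 688 in mutants against 639, 585 and 508 in siblings (0.37 ± 0.16), with no overlap. The cilium gene cimap1b was lower by the fit (-0.53 ± 0.21), with 45.6, 51.9 and 30.8 in mutants against 65.0, 59.9 and 79.1 in siblings, and was at background on all mutant arrays and on 1 sibling array. Its mutant mean of 42.8 is under the level of the filter, so it entered the test through its sibling signal, and no bound on its size could be set. The other Jagged genes measured, jag1a and jag1b, differed by 0.17 and 0.13.

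**Figure D3:**
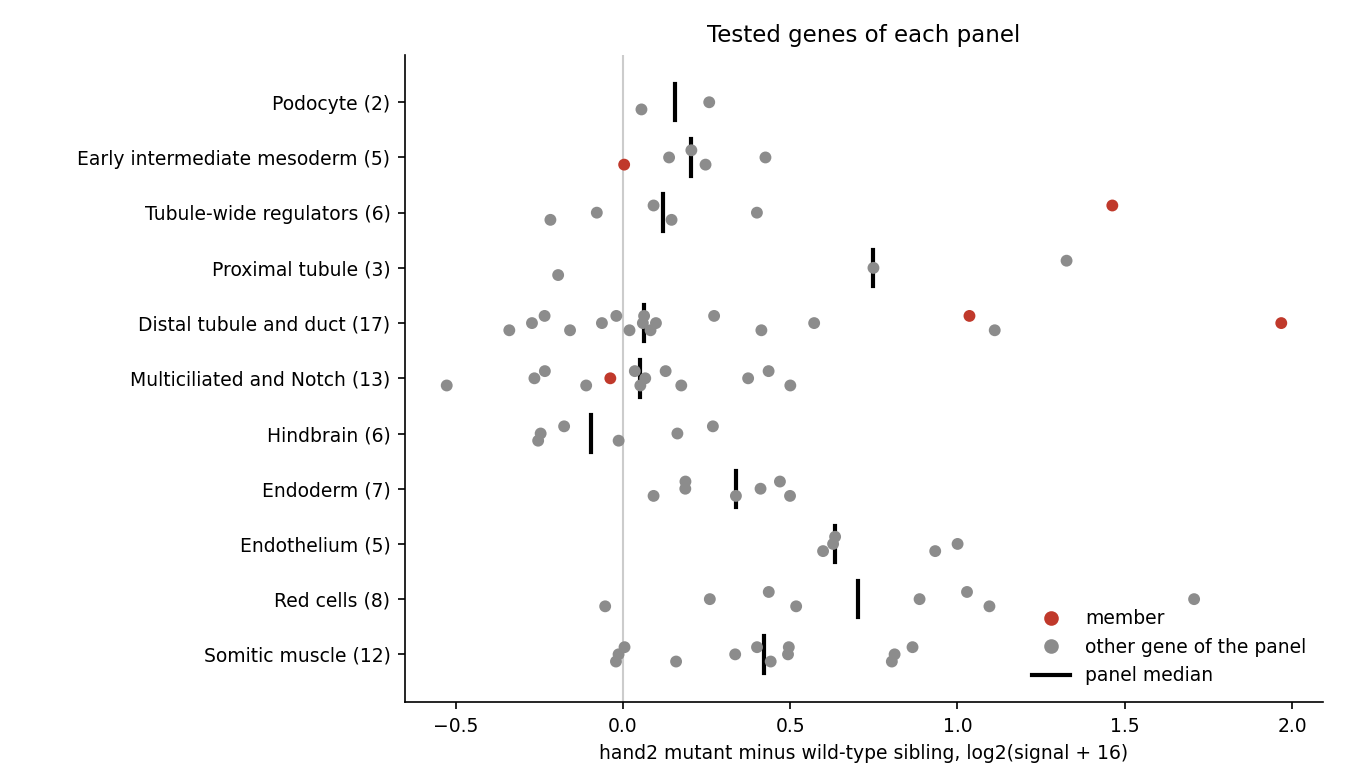
Mutant minus sibling difference in log2(signal + 16) for every tested gene of 11 panels, 1 point a gene, members in red and the panel median as a black bar; the number of tested genes stands beside each name. The 3 red points furthest right are cdh17 at 1.04, hnf1bb at 1.46 and slc12a3 at 1.97, while most genes of the same tubule panels lie near 0 and the endothelium and red cell panels have medians of 0.63 and 0.70.

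Markers of other cells in the embryo were set beside these values, and their part in the result was not tested. HNF1 genes are also used in endoderm and hindbrain. All 7 tested endoderm genes of 11 had higher fitted values, with a median of 0.34, among them gata6 (0.50 ± 0.30) and foxa1 (0.47 ± 0.40). Their median was 0.44 and 0.39 at numbers 1 and 2 but 0.03 at number 3. The genes sox17 and sox32 were at background on all arrays. The summed signal of the 11 was 1140 to 2393 in mutants and 1054 to 1699 in siblings. The 6 hindbrain genes had a median of -0.09, with irx1b at -0.25 ± 0.15 and irx7 at 0.27 ± 0.21, and their sums were 2693 to 3108 in mutants and 2967 to 3377 in siblings.

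Other mesoderm shared the direction of the tubule genes. All 5 tested endothelial genes were higher (median 0.63, with fli1 at 1.001 ± 0.47 and lmo2 at 0.60 ± 0.28), as were 7 of 8 red cell genes (median 0.70) and 10 of 12 somitic muscle genes (median 0.42). The globin gene hbbe3 had 6258, 3270 and 1554 in mutants against 1303, 1503 and 1639 in siblings (1.096 ± 0.40), beside 1.04 for cdh17. The red cell anion exchanger gene slc4a1a had 255, 151 and 46.2 in mutants against 29.9, 28.1 and 23.9 in siblings, with a fitted difference of 1.71 ± 0.44. All siblings and mutant replicate 3 were at background, so no fold is given. The sibling mean of 27.3 is under the level of the filter. This gene therefore entered the test only through its mutant signal, and its p supports nothing by itself. Among muscle genes, klhl41b differed by 0.87 ± 0.30 and neb by 0.80 ± 0.27. For neb all siblings and mutant replicate 3 were at background and the groups overlapped, so its fitted value is no measure of size. An unadjusted p under 0.05 with higher signal in mutants was held by 4 of 8 red cell, 4 of 12 muscle, 0 of 5 endothelial and 0 of 7 endoderm genes. With the replicate block it was held by 5, 6, 4 and 2 of them, and both red cell counts include slc4a1a. All tested probe sets gave 2% without the block and 4.82% with it. Summed signals in mutants and siblings were 455 to 1364 and 378 to 654 for endothelium, 4712 to 16048 and 4088 to 5336 for red cells, and 23363 to 38298 and 24598 to 32022 for muscle. At number 3 these 3 medians were 0.31, 0.02 and 0.11, against 0.88, 1.39 and 0.55 at number 1, so number 3 was below number 1 in each of these tissues. No gene of these 3 lists passed in limma (lowest adjusted p = 0.942). The 1 tested ionocyte gene, ca2, differed by 0.22 ± 0.21, and in the adrenal-like interrenal list cyp11a1.1 differed by 0.09 ± 0.41, with the other 2 measured genes of that list at background. The 3' to 5' log2 ratio of the actin control, a sign of RNA integrity, was 2.18 in mutant replicate 1 and 3.31 to 3.91 on the other 5 arrays. That of the GAPDH control was 1.73 in mutant replicate 1, 1.77 in sibling replicate 1 and 1.95 to 2.08 on the remaining arrays. The part of either ratio in the results was not tested. Mutant replicate 1 had the highest signal of atp1a1a.4, hbbe3, slc4a1a and the dimmer slc12a3 probe set, and the middle mutant signal of hnf1bb, cdh17 and the brighter slc12a3 probe set.

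To see which transcripts varied most like the tubule genes, the profile of each over the 6 arrays was centred on its mean and compared with 6915 other named genes. The measure was the root mean square difference of the centred log2 values, where 0 means the same profile. The hnf1bb profile was nearest to that of ndrg1a, at 0.09, against a root mean square of 0.91 for the hnf1bb profile itself, followed by slc4a2a at 0.16 and cldn3d at 0.22. The stress- and differentiation-related gene ndrg1a had 252, 397 and 97.5 in mutants against 81.8, 77.7 and 57.3 in siblings. The claudin gene cldn3d, of the tight junction family, had 688, 1087 and 410 in mutants against 279, 339 and 247 in siblings.

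For slc12a3 the nearest were drl, a zinc finger gene of lateral plate and blood, at 0.30, ndrg1a at 0.31 and hnf1bb at 0.31. The drl signals were 360, 816 and 95.4 in mutants against 89.5, 80.8 and 61.1 in siblings. For cdh17 they were the forkhead gene foxa at 0.21, the amino acid transporter gene slc38a8b at 0.22 and the cilium gene cfap45 at 0.24. The members lay 0.31 (slc12a3 and hnf1bb), 0.32 (hnf1bb and cdh17) and 0.61 (slc12a3 and cdh17) apart. The likeness is a description over 6 arrays that share the genotype contrast and their batches, and for slc12a3 and hnf1bb the sibling side of the profile is at background. Among the neighbours, cfap45 was at background on all sibling arrays and 1 mutant array. Its sibling mean of 38.3 is under the level of the filter, so it was ranked only through its mutant signal. For foxa 1 mutant and 2 sibling arrays were at background, and for drl and ndrg1a 2 sibling arrays each. The foxa sibling signals were 65.5, 68.1 and 17.9. On the log scale used for the filter, their mean is also under the level of the filter. The gene foxa was therefore, like cfap45, ranked only through its mutant signal.

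**Figure D4:**
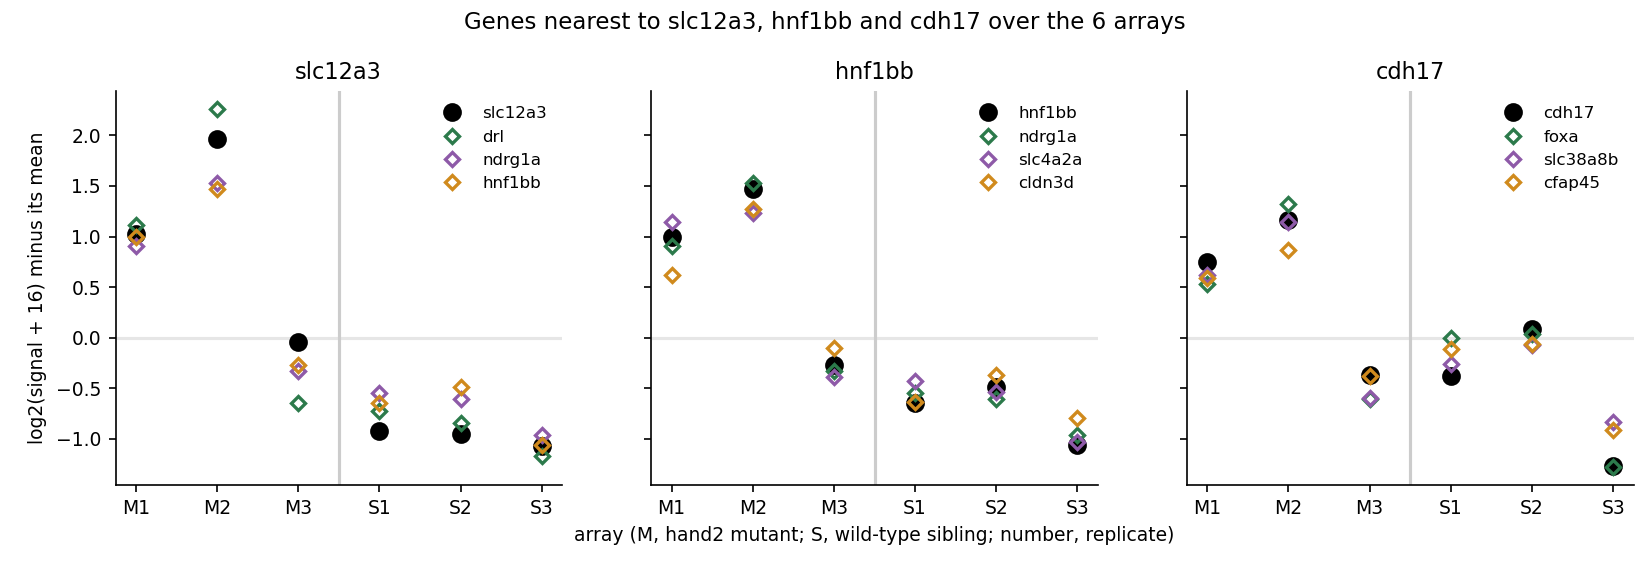
Centred log2(signal + 16) of slc12a3, hnf1bb and cdh17 (black) and of the 3 genes nearest to each (open diamonds) on the 6 arrays, with hand2 mutants M1 to M3 left of the line and wild-type siblings S1 to S3 right of it. In all 3 panels M2 is highest and S3 lowest, and M3 lies close to or among the siblings for hnf1bb and cdh17.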

How the data were processed

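The authors deposited linear intensity values, 1 for each probe set and array. The submitters' processing notes name MAS5 for them, without a version. No detection calls were used. The deposited intensity values share a 2% trimmed mean near 500.1 on all arrays and were not rescaled. The table held 15617 probe sets, of which 115 controls were removed. Symbols came from the platform annotation, updated through gene identifiers to RefSeq (assembly GRCz12tu), which matched 10711 probe sets.

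Values were taken as log2(signal + 16), and the lowest 25% by mean were left out. Genotype was fitted over 11626 probe sets with limma 3.58.1 in R 4.3.3 (eBayes with an intensity trend, 2-sided, Benjamini-Hochberg adjustment, threshold 0.05), after the code was tested on simulated data. The number of arrays limits the precision. The labels name 3 crosses without tying each array to one, so p-values measure the spread between these arrays.

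Arrays of 1 number were paired because all 3 correlations of deviations exceeded 0.1 (0.193, 0.119 and 0.482). The labels give only the number. Correlations between arrays of different numbers were not set beside these, so they do not show that a number marks a cross. In lists, a gene was represented by its probe set of highest mean. Beyond the members, the text names, by rule, hand2, the 3 genes of smallest p in each pronephros list and 2 in each other list, and the 3 nearest profiles. Genes outside that rule (emx1, gata3, aqp3a, irx1a, pax8, hnf4a, jag1a, jag1b, sox17, sox32 and tie1) were named after their values were seen. The members, lists and tests were chosen with earlier results of these data known. Alternatives were other offsets, filters, scalings, array weights, no trend, the replicate block and arrays left out.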

Additional observations from a re-analysis of the deposited data

How the results depend on the processing

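The differences of slc12a3, hnf1bb and cdh17 stayed positive under all 18 alternatives, between 1.44 and 2.48, 0.997 and 1.97, and 0.66 and 1.48 on the log2 scale. Some of the 18 could not move a difference of means: no filter, the lowest 50% left out, the replicate block and no trend. Members were kept in the fit when the lowest 50% were left out. None of the 3 genes passed in limma except slc12a3 and hnf1bb without mutant replicate 3. That array held the lowest mutant signal of both, so these passes support nothing by themselves. The gap between the tubule and the podocyte medians of the members was 1.15 to 2.09 over 20 alternatives. Some of these could not move it: both filters, scaling to a common median, array weights, the replicate block and no trend. The gap was not seen between the wider lists of distal tubule and duct and of podocyte and early mesoderm genes. In whole embryos those lists are not read from the pronephros alone. The proximal tubule list had a higher median than these, 0.75 over 3 tested genes. The podocyte median of the members ran from -0.21 to 0.06 and changed sign in 3 of the 20. The jag2b difference was between -0.094 and 0.021 with 1 array left out, and 0.046 without both arrays of number 2. The hand2 difference was -2.65 to -2.36 with 1 array left out and missed the threshold without sibling replicate 1 or 2. It also missed it without both arrays of number 1 (-2.56), 2 (-2.37) or 3 (-2.60).

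The number of probe sets past the threshold in limma was 0 to 20 with 1 array left out. It was 0 without both arrays of number 1, 2 or 3, where 474, 147 and 612 had an unadjusted p under 0.05. With all arrays 352 had one, against 862 with the replicate block, 560 with array weights, 533 without the filter, 214 with the lowest 50% left out and 154 to 1274 with 1 array left out. The cause of these shifts was not tested. Under the 2 filters the number of probe sets tested differed as well. The block changed no call at the adjusted threshold. No detection calls were used, and signals near the Tag controls set no size for slc12a3 or hnf1bb in siblings, or for wt1a and lhx1a in either genotype.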
